A study of Mus musculus with 4 samples.

Results

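The transcripts described here are the 37 rows of the count tables, of 55453 in all, whose gene symbol starts with mt-, the prefix of genes encoded by the mouse mitochondrial genome. They comprise 13 messenger RNAs, 2 ribosomal RNAs and 22 transfer RNAs. Every one of the 37 lies on the mitochondrial chromosome in the GENCODE M21 annotation of GRCm38. In that annotation 28 lie on the plus strand and are called heavy-strand genes below, after the strand whose promoter drives them. The other 9 lie on the minus strand and are called light-strand genes, namely mt-Nd6 and 8 tRNAs.

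The embryos, of the mouse, had been injected with a morpholino, a synthetic oligomer that pairs with an RNA and blocks its translation or splicing. The 4 groups were blastocyst wells with the NKX1-2 morpholino, blastocyst wells with the control morpholino, morula wells with the NKX1-2 morpholino and morula wells with the control morpholino. All wells were thus injected, and the labels give no strain, no embryo age in days and no embryo for a well. Each stage had 2 plates of 96 wells, and each plate held 48 wells of each morpholino, with the same 96 barcodes on every plate. Counts were summed over the 368 of 384 wells with at least 2000 detected genes, which gave 8 sums, 1 per plate and morpholino, and the plate was the replicate (n = 2 per stage). The sums held in all 1084312 to 1685358 counts in the blastocyst and 2081917 to 2398605 in the morula. No label says that the plates came from separate injections. Between stages p-values measure the spread between these plates. Between morpholinos, with the plate as a block, they measure how the difference within a plate varied between plates. Either spread may be technical. In such sums, fewer cells with a transcript and less of it per cell cannot be told apart. Summed trophectoderm markers (8 genes) lay at 622 to 789 CPM in blastocyst NKX1-2 sums and 577 to 585 CPM in blastocyst control sums, against 315 to 322 CPM in morula NKX1-2 sums and 303 to 335 CPM in morula control sums. Inner cell mass markers (6 genes) lay, in the same order of groups, at 301 to 351, 279 to 354, 978 to 1048 and 1047 to 1049 CPM. Primitive endoderm markers (4 genes) lay at 137 to 144, 105 to 156, 282 to 330 and 287 to 312 CPM in that order, with Sox17 at 0 in the morula sums. The part of these markers in the results below was not tested. Markers of cumulus and granulosa cells (7 genes) reached at most 6.16 CPM in any sum, and Inha, Has2 and Ptgs2 were at 0 in all 8.

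The mitochondrial genome is a small circle that encodes subunits of the respiratory chain and the RNAs of the mitochondrial ribosome. The RNA polymerase POLRMT copies both strands into long precursors, and tRNAs that lie between the other genes mark where these are cut. Most of the freed mRNAs then receive a short poly(A) tail, which in several of them completes the stop codon. Preimplantation embryos inherit their mitochondria from the egg and divide them among their cells.

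The sequences below, from the GENCODE M21 transcripts, mark the rows on which the results turn. The first set gives the last 30 bases of mt-Cytb, the mRNA with the most counts, and of mt-Nd5 and mt-Nd6, whose ends overlap on opposite strands. The stop codon, or the part of it that the genome encodes, is in capitals. They lie at chrM:15259-15288 on the plus strand, chrM:13536-13565 on the plus strand and chrM:13552-13581 on the minus strand.
mt-Cytb: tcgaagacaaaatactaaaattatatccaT
mt-Nd5: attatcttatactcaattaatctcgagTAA
mt-Nd6: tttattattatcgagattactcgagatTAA
The second set gives the 6 light-strand tRNAs with at least 20 counts, 5′ to 3′ on the minus strand, with the anticodon in capitals. They lie at chrM:3772-3842, chrM:5018-5086, chrM:5089-5159, chrM:5192-5257, chrM:14071-14139 and chrM:15356-15422.
mt-Tq: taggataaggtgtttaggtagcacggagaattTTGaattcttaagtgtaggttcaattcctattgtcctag
mt-Ta: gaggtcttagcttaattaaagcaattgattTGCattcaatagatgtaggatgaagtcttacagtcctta
mt-Tn: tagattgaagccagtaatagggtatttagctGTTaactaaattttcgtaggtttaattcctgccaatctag
mt-Tc: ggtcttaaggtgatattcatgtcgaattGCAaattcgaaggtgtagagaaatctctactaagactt
mt-Te: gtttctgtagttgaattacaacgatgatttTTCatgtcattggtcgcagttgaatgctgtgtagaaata
mt-Tp: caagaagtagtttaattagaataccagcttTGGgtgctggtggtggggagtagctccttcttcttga
The last one gives the first 60 bases of mt-Co2, at chrM:7013-7072 on the plus strand, which also stand in the transcript of the nuclear pseudogene Gm28661. It is shown because mt-Co2 had no count in any sum.
mt-Co2: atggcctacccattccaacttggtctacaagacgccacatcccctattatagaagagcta

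Of the 13 mRNA rows, 7 carried nearly all mRNA counts and 6 were at or near 0. Over the 368 wells, mt-Cytb, the mitochondrially encoded subunit of complex III, had 105802 counts. The complex I subunits mt-Nd1, mt-Nd4, mt-Nd2, mt-Nd5 and mt-Nd6 had 76707, 40997, 38988, 25308 and 9936 counts. The cytochrome oxidase subunit mt-Co1 had 7892. The other cytochrome oxidase subunits, mt-Co2 and mt-Co3, had 0 and 1 counts. The ATP synthase subunits mt-Atp6 and mt-Atp8 had 3 and 1, and the complex I subunits mt-Nd3 and mt-Nd4l had 1 each. These 6 mRNAs follow one another in the genome, from mt-Co2 at chrM:7013-7696 to mt-Nd4l at chrM:9877-10173.

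Sequence shared with transcripts of annotated nuclear genes ran alongside the near-0 rows, with apparent exceptions in each direction. Every 31-base stretch of mt-Co2 (100%) also occurred in a transcript of an annotated nuclear gene, and so did 99.5% of the stretches of mt-Atp6, 99.9% of mt-Co3, 98.1% of mt-Nd3 and 98.9% of mt-Nd4l. For mt-Atp8, which was also near 0, the share was 7.47%. Only transcripts of annotated genes were searched, so this share can miss nuclear copies outside them. mt-Atp8 (chrM:7766-7969) lies between mt-Co2 and mt-Atp6 and overlaps the latter. The top matches of these neighbours, Gm28661 and Gm10925, lie side by side on chromosome 1 with a gap between them. Whether that gap holds a copy of mt-Atp8 was not tested, so its low share is no sure exception. Among the counted mRNAs it was 0% for mt-Nd1, 6.55% for mt-Cytb, 7.36% for mt-Nd6, 13.5% for mt-Nd2 and 16.8% for mt-Nd5. It was 62.8% for mt-Nd4 and 63.9% for mt-Co1, both of which were well counted. Within mt-Nd4 the share was 100% over the 5′ part and 25.5% over the 3′ part, split at the middle. Within mt-Co1 it was 51.8% over the 5′ part and 76% over the 3′ part. How reads that match several places were counted is not given in the sources used here, and its part in the near-0 rows was not tested. Levels of mt-Co1, mt-Nd4 and the 6 near-0 mRNAs are therefore uncertain.

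**Figure D1:**
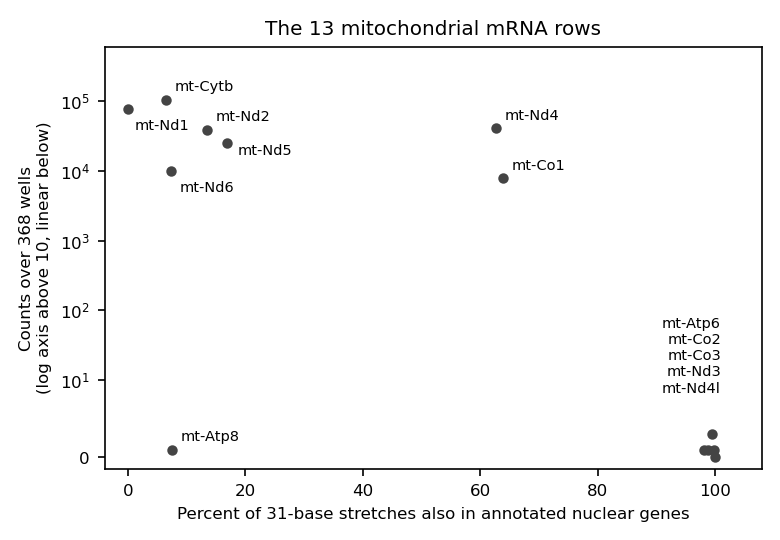
Counts of each of the 13 mitochondrial mRNAs over the 368 wells kept (vertical axis, logarithmic above 10 and linear below) against the percent of its 31-base stretches that also occur in annotated nuclear genes (horizontal axis). Each point is 1 mRNA. The 5 mRNAs above 98% hold 0 to 3 counts each, and mt-Atp8 holds 1 count at 7.47%.

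The nuclear genes that hold the shared stretches are chiefly pseudogenes, and most of those with many stretches lie in 1 block on the minus strand of chromosome 1. No nuclear gene had 1000 shared stretches, and 12 had at least 100, a limit chosen after the values were seen. Gm28661 (chr1:24614885-24615565), which shares 651 stretches, held 6 counts over all sums, and Gm10925 (chr1:24613974-24614651), with 648, held 53. Gm28438 (chr1:24612775-24613119), which shares 312, was the exception with 4224 counts. It had 25 and 83 counts in blastocyst NKX1-2 sums, 34 and 87 in blastocyst control sums, 1028 and 998 in morula NKX1-2 sums and 1000 and 969 in morula control sums. The counts of Gm28437 (chr1:24613189-24613971) behaved likewise, with 0 and 1, 0 and 0, 231 and 258, and 148 and 174 counts in the same order of groups. With the 12 genes added, the mitochondrial share of all counts in control wells was 5.99% in the blastocyst and 5.11% in the morula, against 5.99% and 5.05% without them.

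Among all 37 rows the large ribosomal RNA mt-Rnr2 led, with 415684 counts, and the small ribosomal RNA mt-Rnr1 had 36938. The tRNA rows ranged down from mt-Tp with 2275 counts, and 14 of the 22 had at least 20, down to mt-Ts2 with 42. Counts were 12 for mt-Tr and 1 for mt-Td, while mt-Tw, mt-Ty, mt-Ts1, mt-Tk, mt-Tg and mt-Th had none. Of these, mt-Ts1, mt-Td, mt-Tk, mt-Tg and mt-Tr lie between mt-Co1 and mt-Nd4l, among the near-0 mRNAs, and mt-Tw, mt-Ty and mt-Th lie elsewhere. Nuclear sequence outside annotated transcripts was not searched for copies of these tRNAs. In all, 7 of the 37 rows had no count and 7 more had 1 to 19. Mature tRNAs, their precursors and the overlapping ends of neighbouring genes cannot be told apart in these counts.

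Per kilobase of transcript, mt-Rnr2 stood first in all 4 groups, with 23633 ± 351 CPM per kb in blastocyst NKX1-2 wells, 25028 ± 3285 in blastocyst control wells, 13961 ± 2953 in morula NKX1-2 wells and 14213 ± 2315 in morula control wells (SD, n = 2 plates each). The ranks below it differed by stage. In the blastocyst mt-Nd1 came next, before mt-Cytb, and in the morula mt-Cytb came next, before mt-Nd1. In blastocyst control wells mt-Nd1 lay at 5570 and 6404 CPM per kb and mt-Cytb at 5325 and 5392, so these neighbours did not overlap, and their difference was not tested. The light-strand tRNA mt-Tp ranked 4 in the morula, with 3730 ± 471 CPM per kb in NKX1-2 and 3636 ± 515 in control wells. It ranked 18 and 17 in the blastocyst, with 107 ± 61.6 and 175 ± 103 CPM per kb. Division by length lifts short rows. Before it, mt-Tp had 250 and 244 CPM in morula NKX1-2 and control wells, against 2982 and 3604 for mt-Nd2, which ranked 5. Whether counts scale with length in these libraries was not tested, so ranks of tRNAs against mRNAs are uncertain.

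**Figure D2:**
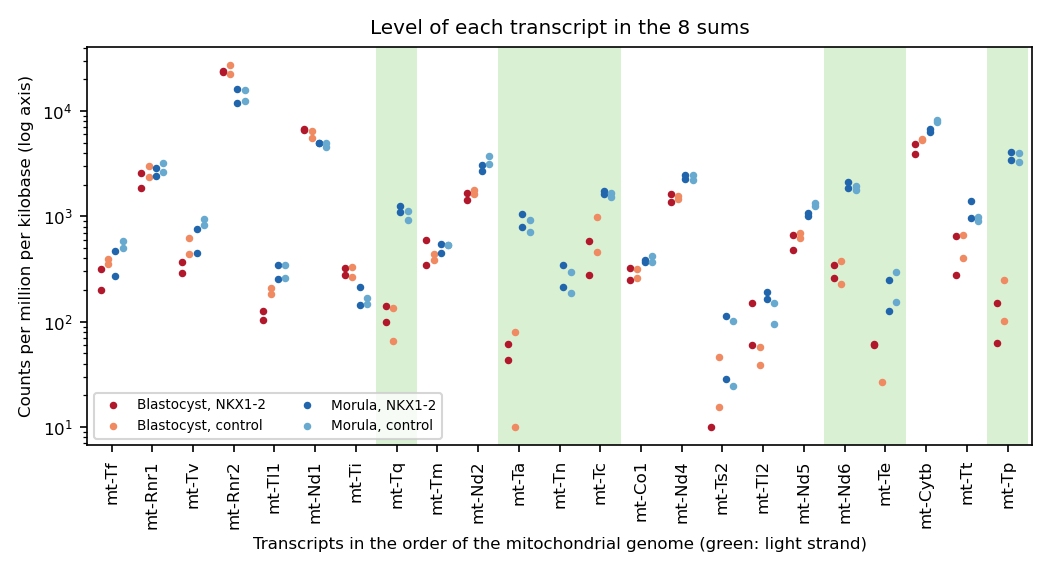
Level of each transcript with at least 20 counts, in CPM per kb on a logarithmic axis, in the order of the mitochondrial genome. Each point is 1 of the 8 sums, coloured by stage and morpholino, sums with 0 counts are not drawn, and green bands mark light-strand genes. The morula points of mt-Tp, mt-Ta, mt-Tq and mt-Nd6 all lie above the blastocyst points.

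Mitochondrial transcripts took a similar part of all counts in every group, while their make-up differed between stages. Their share was 5.52% and 5.77% in blastocyst NKX1-2 sums, 6.35% and 5.63% in blastocyst control sums, 4.40% and 5.08% in morula NKX1-2 sums and 4.68% and 5.43% in morula control sums. The blastocyst sums were all higher than the morula sums, but the lowest of them exceeded the highest morula sum by little beside the spread between plates. The rRNA rows held 3.95% ± 0.0071 of all counts in blastocyst NKX1-2 wells and 4.22% ± 0.562 in blastocyst control wells, against 2.46% ± 0.5 and 2.53% ± 0.405 in the morula (SD, n = 2). The mRNA rows ran the other way, with 1.67% ± 0.177 and 1.75% ± 0.0518 in the blastocyst against 2.20% ± 0.0192 and 2.45% ± 0.123 in the morula. Within the mitochondrial counts, rRNA thus made up 70.1% and 70.2% in blastocyst NKX1-2 and control wells, and 51.7% and 49.8% in the morula. The libraries were made from polyA RNA, and how far RNA without a poly(A) tail was captured was not tested. These shares, and the levels of rRNA, tRNA and light-strand rows, therefore describe the counts and not the make-up of mitochondrial RNA. Nearly all of the rRNA counts came from mt-Rnr2. No test was made of these sums over rows.

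**Figure D3:**
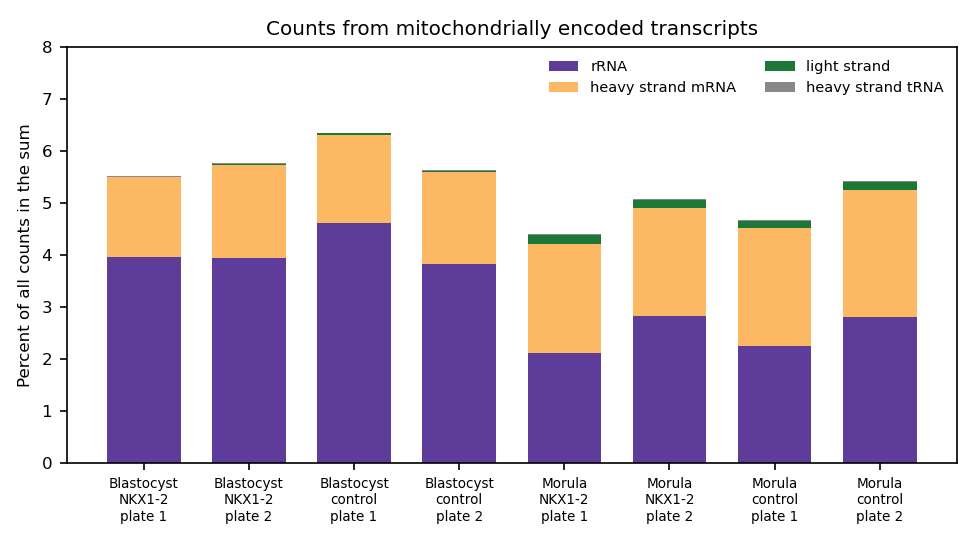
Percent of all counts in each of the 8 sums that fell on mitochondrial transcripts, stacked as rRNA, heavy-strand mRNA, light-strand rows and heavy-strand tRNA. Each bar is 1 plate and morpholino. The rRNA part is taller, and the heavy-strand mRNA and light-strand parts shorter, in the 4 blastocyst bars than in the 4 morula bars.

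Single wells spread more widely than the sums. The share of a kept well's counts lay between 2.89% and 12.9%. Its median was 5.33% and 5.21% in the 2 plates of blastocyst NKX1-2 wells, 6.16% and 5.68% in blastocyst control wells, 4.34% and 4.93% in morula NKX1-2 wells and 4.56% and 5.35% in morula control wells. The wells of different groups overlapped throughout. The 16 wells left out for few detected genes held 243 to 5669 counts each, and mitochondrial rows took 6.58% to 41.4% of these, with a median of 12.2%.

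Between the stages, mt-Rnr2 and mt-Nd1 were higher in the blastocyst and 4 other heavy-strand mRNAs were lower. mt-Rnr2 had 43269 and 35919 CPM in blastocyst control sums, against 19895 and 25074 in morula control sums. The groups did not overlap, and the log2 fold change was 1.12 (SE 0.12). It passed with an adjusted p of 8.05e-07 by the quasi-likelihood test of edgeR, adjusted by Benjamini-Hochberg over all genes tested. mt-Nd1 had 5331 and 6129 CPM in blastocyst and 4403 and 4726 CPM in morula control sums, and its log2 fold change was 0.63 (SE 0.12, adjusted p = 0.000232). mt-Rnr1 had 2862 and 2265 CPM against 2497 and 3045, which overlapped, and did not pass (0.19, SE 0.15, adjusted p = 0.318). The CPM given are shares of all counts without TMM size factors, whereas the log2 fold changes use these factors. CPM and fold changes can therefore differ in size or sign. For mt-Rnr1 the mean CPM was 2564 in blastocyst and 2771 in morula control sums. The 2 rRNAs, which are cut from the same precursor, thus had different log2 fold changes, and that difference was not tested.

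The mRNAs that fell included mt-Nd2, with 1852 and 1690 CPM in blastocyst control sums against 3297 and 3911 in morula control sums (log2 fold change -0.73, SE 0.14). mt-Nd5 had 1268 and 1134 CPM against 2278 and 2431 (-0.67, SE 0.14). mt-Nd4 and mt-Cytb fell by 0.35 (SE 0.13) and 0.28 (SE 0.11) on the log2 scale, with adjusted p-values of 0.0314 and 0.0488. mt-Co1 had 399 and 493 CPM against 649 and 564 and did not pass (adjusted p = 0.511). In NKX1-2 wells the same rows gave 1.04 (SE 0.12) for mt-Rnr2, 0.70 (SE 0.10) for mt-Nd1, -0.61 (SE 0.12) for mt-Nd2, -0.58 (SE 0.14) for mt-Nd5, -0.38 (SE 0.11) for mt-Nd4 and -0.29 (SE 0.11) for mt-Cytb, and each of these passed. The heavy-strand tRNA mt-Ti passed as higher with both morpholinos (1.04, SE 0.35 in NKX1-2 wells, and 1.22, SE 0.38 in control wells), at 10.2 to 23.1 CPM in the control sums. The leucine tRNA mt-Tl1 and the threonine tRNA mt-Tt fell in NKX1-2 wells, by 1.09 (SE 0.37) and 1.04 (SE 0.32) on the log2 scale, and did not pass in control wells (-0.34 and -0.51). mt-Tf, mt-Tv, mt-Tm and mt-Tl2 passed in neither. Several of these calls were lost under other settings. In control wells that of mt-Cytb was lost in 8 of 14 alternatives and that of mt-Nd4 in 5. In NKX1-2 wells these were lost in 4 and 3 of 14. The call of mt-Ti was lost in 7 of 14 with each morpholino. In NKX1-2 wells those of mt-Tl1 and mt-Tt were lost in 6 and 2 of 14.

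Light-strand genes stood out by size. mt-Nd6, the only mRNA of that strand, had 136 and 179 CPM in blastocyst NKX1-2 sums, against 1092 and 976 CPM in morula NKX1-2 sums. It had 194 and 119 CPM in blastocyst control sums, against 930 and 1018 CPM in morula control sums. Neither pair of groups overlapped, and its log2 fold changes were -2.43 (SE 0.15) in NKX1-2 and -2.35 (SE 0.20) in control wells. The proline tRNA mt-Tp had 16.6 and 6.84 CPM in blastocyst and 219 and 268 CPM in morula control sums, a log2 fold change of -4.14 (SE 0.31). The alanine tRNA mt-Ta fell by 4.02 (SE 0.50) and the glutamine tRNA mt-Tq by 2.99 (SE 0.36) on the log2 scale in control wells. Both rest on few blastocyst counts. mt-Ta had 6 and 1 in blastocyst control sums against 106 and 134 in morula control sums. mt-Tq had 5 and 14 against 173 and 136. Over all settings the log2 fold change of mt-Ta lay between -5.99 and -3.01. The cysteine tRNA mt-Tc fell least, by 0.86 (SE 0.29), and its call was lost in 5 of 14 alternatives, among them without blastocyst replicate 2 (-0.33, adjusted p = 0.356) and without morula replicate 1 (-0.84, adjusted p = 0.0754). The glutamate tRNA mt-Te passed with 2 and 0 counts in blastocyst control sums against 23 and 43 in morula control sums. With 6 and 7 counts in blastocyst NKX1-2 sums against 41 and 21 in morula NKX1-2 sums, it fell by 1.34 (SE 0.50) on the log2 scale. That call was lost in 4 of 13 alternatives, by DESeq2 and without morula replicate 1, blastocyst replicate 1 or blastocyst replicate 2, with adjusted p-values up to 0.366. The asparagine tRNA mt-Tn had 0 counts in all blastocyst sums. With its blastocyst level set at the floor of 3 counts per group, it was at least 20.6-fold lower in blastocyst NKX1-2 and at least 14.6-fold lower in blastocyst control wells than in the morula.

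In all, 16 of 22 tested rows passed in NKX1-2 wells, 3 higher and 13 lower, where 45.9% of all 10221 genes tested passed, 21.9% higher and 24% lower. In control wells 14 of 22 passed, 3 higher and 11 lower, where 41.7% of 9577 genes passed, 20.1% higher and 21.6% lower. By strand, all 7 tested light-strand rows fell with either morpholino. The filter on low counts keeps a row that is high enough in the sums of 1 stage. mt-Tn, mt-Ta and mt-Te had 0 to 7 counts in each blastocyst sum and were kept through their morula sums. For such rows a fall is nearly fixed in advance, so the tally and the medians below overstate the light-strand difference. mt-Nd6 and mt-Tc had at least 26 counts in every sum. Of the 15 tested heavy-strand rows, 3 rose and 6 fell in NKX1-2 wells, and 3 rose and 4 fell in control wells. The median log2 fold change of the light-strand rows, with mt-Tn at its bound, was -2.97 in NKX1-2 and -3.87 in control wells. That of the heavy-strand rows was -0.29 and -0.28, and that of all genes tested -0.02 and -0.01. Without blastocyst replicate 1 the number of NKX1-2 calls was 8, and with 1 of the other plates left out it was 13 to 15. Without TMM factors the median of all genes moves by 0.26 on the log2 scale, and no row that passed turned its direction, while mt-Rnr1 did, to -0.23 in NKX1-2 and -0.09 in control wells.

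**Figure D4:**
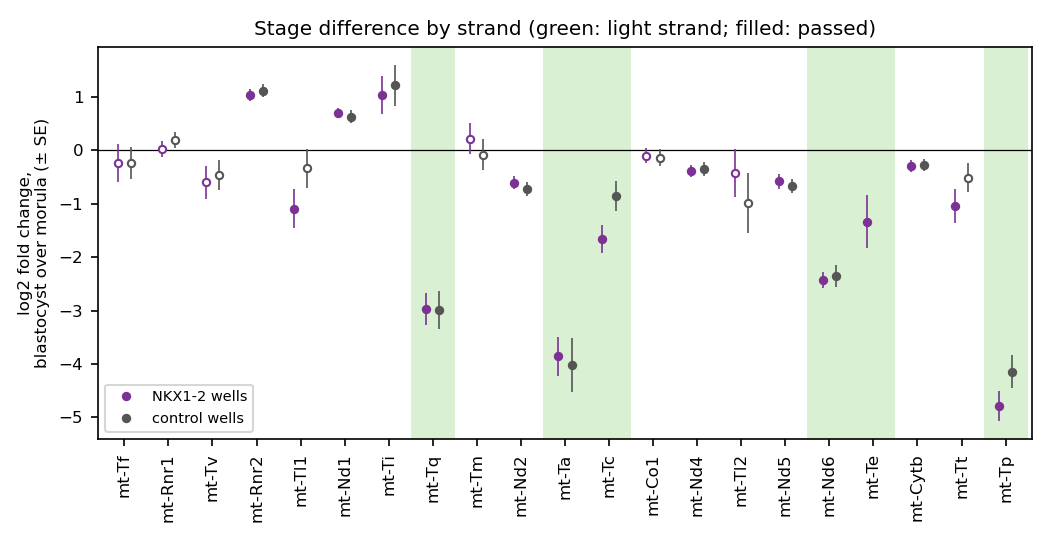
Log2 fold change, blastocyst over morula, with its standard error, for each tested row in genome order, in NKX1-2 wells (purple) and control wells (grey). Filled points passed, open points did not, and green bands mark light-strand genes. mt-Tn and the control point of mt-Te are not drawn because of 0 and 2 blastocyst counts, and every light-strand point drawn lies below 0.

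The files of the stages differ in how genes that overlap a gene on the opposite strand appear, which bears on any result by strand. Among genes with at least 20 mean CPM in control wells, 9 have at least 90% of their exons covered by exons of the other strand. Their median level was 325 CPM in blastocyst and 0 CPM in morula control wells, 8 of the 9 were lower in the morula, and 6 were under 1 CPM there. None of the 9 was under 1 CPM in the blastocyst. The median log2 ratio of blastocyst over morula was 7.63 for these 9 genes, 0.44 for the 34 genes with 50% to under 90% cover and -0.34 for the 3735 genes with none. The mitochondrial rows have little such cover by annotated exons, at most 2.70% for the mRNAs and 4.35% for the tRNAs. That measure leaves out the long precursors copied from both strands, which lie opposite the annotated genes. The part of strand counting in the light-strand differences was not tested. Stage and the making of the files cannot be told apart, so the light-strand differences hold between these files.

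Nuclear genes that act on mitochondrial DNA and RNA were compared between the stages too, and the background is the share of all genes that passed, 45.9% in NKX1-2 wells and 41.7% in control wells. The lists of transcription and replication and of RNA processing passed at shares near or below it. Of 17 tested genes of mitochondrial transcription and replication, 4 were higher and 3 lower in blastocyst than in morula NKX1-2 wells. Of 16 tested in control wells, 3 were higher and 4 lower, with a median log2 fold change of -0.15 against -0.01 over all genes. Polrmt, the mitochondrial RNA polymerase, had 26.3 ± 3.28 CPM in blastocyst and 112 ± 9.19 CPM in morula control wells (SD, n = 2 each; log2 fold change -1.80, SE 0.26). Tfam, which packages mitochondrial DNA and starts its transcription, ran the other way, with 47.9 ± 11.6 and 28.7 ± 3.28 CPM (1.05, SE 0.28). Tfb1m (1.58), an rRNA methyltransferase of the mitochondrion, rose as well. Rnaseh1, which removes RNA from RNA-DNA hybrids, fell by 0.85 (SE 0.25) on the log2 scale.

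Of 21 tested genes of mitochondrial RNA processing, tails and decay, 5 were higher and 4 lower in blastocyst than in morula NKX1-2 wells. Of 20 tested in control wells, 4 were higher and 2 lower, with a median of 0.29. Lrpprc, which binds and stabilises mitochondrial mRNAs, had 47.4 ± 6.03 CPM in blastocyst and 30.9 ± 0.891 CPM in morula control wells (0.91, SE 0.28). Its partner Slirp had 190 ± 13.5 and 10.4 ± 2.26 CPM, but 97.8% of its exons are covered by the opposite strand. Elac2, which cuts the 3′ ends of mitochondrial tRNAs, and Grsf1, an RNA-binding protein of mitochondrial RNA granules, fell by 0.83 (SE 0.28) and 0.96 (SE 0.28) on the log2 scale.

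Of 7 tested regulators of mitochondrial biogenesis, 7 were lower in the blastocyst in NKX1-2 wells and 5 in control wells, and none was higher. Of all genes tested, 24% and 21.6% were lower in those fits. The median log2 fold changes were -1.12 in NKX1-2 and -1.21 in control wells. Myc had 4.72 ± 3.77 CPM in blastocyst and 51.0 ± 3.28 CPM in morula control wells (log2 fold change -3.22, SE 0.44). The nuclear receptor Esrra had 4.12 ± 1.92 and 30.6 ± 2.57 CPM (-2.52, SE 0.45). Of 17 genes listed as measures of mitochondrial mass, 6 were higher and 3 lower in NKX1-2 wells, with a median of 0.02, and 6 higher and 2 lower in control wells, with a median of 0.09. These counts are near the 45.9% and 41.7% of all genes that passed. Cycs, cytochrome c of the respiratory chain, rose most, to 93.2 ± 10.5 CPM in blastocyst control wells against 16 ± 3.6 CPM in morula control wells (2.84, SE 0.28). The protein import pore gene Tomm40 fell by 1.00 (SE 0.18) on the log2 scale.

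Between the morpholinos, 1 of 23 tested rows passed, mt-Cytb, which was lower in NKX1-2 wells. It had 4457 and 5569 CPM in blastocyst NKX1-2 sums, against 6092 and 6168 CPM in blastocyst control sums. In the morula it had 7698 and 7250 CPM in NKX1-2 sums, against 9014 and 9322 CPM in control sums. The NKX1-2 sums were lower on all 4 plates, and within each stage the groups did not overlap. Averaged over the stages its log2 fold change was -0.32 (SE 0.06), which passed by edgeR with an adjusted p of 0.0139. In the blastocyst it was -0.32 (SE 0.09, adjusted p = 0.111) and in the morula -0.31 (SE 0.09, adjusted p = 0.161), so neither stage passed by itself. In simulated data unchanged genes made up more of such calls than the threshold allows. The difference of the effect between stages was -0.02 (SE 0.13).

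That call in the average over stages stands beside 2.9% of 10873 genes that passed, 1.33% as lower, so the share of mitochondrial rows (4.35%) is near the background. Including mt-Cytb, 6 rows had an unadjusted p under 0.05. None passed in the blastocyst, where 0.727% of genes passed, or in the morula, where 0.552% did. Unadjusted p-values under 0.05 were found for 2 rows in the blastocyst and 5 in the morula. The share of all genes with an unadjusted p under 0.05 was not computed. The counts of rows by unadjusted p therefore have no background, and the percentages above are of adjusted calls. For the difference between the stages no row passed and none had an unadjusted p under 0.05, where 0.0184% of genes passed. DESeq2 called no row in any of these 4 comparisons, and gave mt-Cytb the same log2 value of -0.32 at an adjusted p of 0.245. The median log2 fold change of the tested rows in the average was -0.06 against -0.01 over all genes.

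Of the other 5 rows with an unadjusted p under 0.05 in the average, all on the heavy strand, 4 had a value below 0 and 1 above, and none passed the adjustment. mt-Nd2 had 1470 and 1747 CPM in blastocyst NKX1-2 sums against 1852 and 1690 in blastocyst control sums, and 2784 and 3181 in morula NKX1-2 sums against 3297 and 3911 in morula control sums. The sums overlapped in the blastocyst, and the average log2 fold change was -0.23 (SE 0.07, adjusted p = 0.105). mt-Nd5 gave -0.29 (SE 0.10, adjusted p = 0.143), lower on 3 of 4 plates. The valine tRNA mt-Tv, which lies between the 2 rRNA genes, gave -0.64 (SE 0.18, adjusted p = 0.0697), lower on 4 of 4 plates. The phenylalanine tRNA mt-Tf gave -0.56 (SE 0.20, adjusted p = 0.164), lower on 4 of 4 plates. The leucine tRNA mt-Tl2 gave 0.82 (SE 0.33, adjusted p = 0.219), higher on 4 of 4 plates. Among the rows with larger p-values, mt-Nd1 gave 0.09 (SE 0.05, adjusted p = 0.426), and mt-Rnr2 -0.07 (SE 0.05, adjusted p = 0.497). For mt-Nd6 the plates disagreed, with log2 CPM differences of -0.57 and 0.60 in the blastocyst and 0.23 and -0.09 in the morula.

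**Figure D5:**
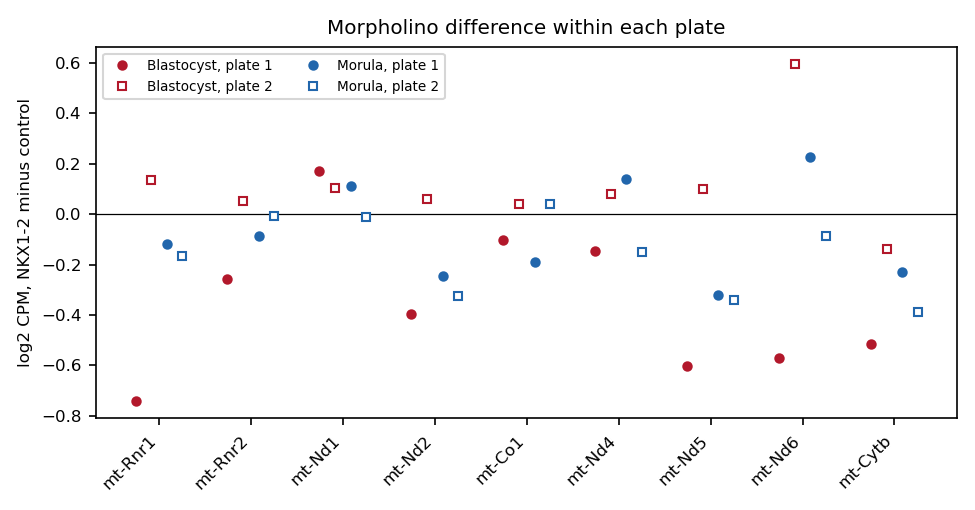
Difference in log2 CPM, NKX1-2 minus control, within each of the 4 plates, for the 7 counted mRNAs and the 2 rRNAs. Each point is 1 plate. The 4 points of mt-Cytb lie below 0, between -0.51 and -0.14, and those of mt-Nd6 lie on both sides of 0.

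The 2 blastocyst plates differed in the morpholino effect on mitochondrial rows. On plate 1 the mitochondrial share of all counts was 5.52% in NKX1-2 wells and 6.35% in control wells, and on plate 2 it was 5.77% and 5.63%. The differences were thus -0.834 and 0.142 percentage points in the blastocyst, and -0.278 and -0.347 in the 2 morula plates. Plate 1 of the blastocyst also held 35 NKX1-2 wells of 47 with Xist but no Y-linked counts, against 15 of 43 control wells. Plate 2 held 20 of 44 against 6 of 43. Morula plates held 10 of 48 against 25 of 48 and 23 of 47 against 27 of 48. On blastocyst plate 1 the median mitochondrial share of such wells was 5.25% in NKX1-2 and 5.39% in control wells, and that of the other wells was 5.96% and 6.78%. On plate 2 these medians were 4.80% and 4.79%, and 6.17% and 5.83%. In fits of wells with Xist but no Y-linked counts mt-Cytb gave -0.28 (adjusted p = 0.213), and in fits of the other wells -0.29 (adjusted p = 0.0617). Neither passed, with fewer wells in each sum.

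The call counts depended on which plates were fitted. The share of all genes that passed was computed for the main fits only. The counts in this paragraph therefore have no background to stand beside, and are not read as a result about mitochondrial rows. Without blastocyst replicate 2, 9 rows passed in the blastocyst, all lower, and 10 in the average over stages. Without blastocyst replicate 1, mt-Nd6 passed as higher in the blastocyst (0.61) and mt-Nd6 and mt-Cytb passed in the average. In both fits, and with the morula plates fitted alone, 4 rows passed in the morula, namely mt-Cytb (log2 fold change -0.30 in the morula plates alone), mt-Nd5 (-0.32), mt-Nd2 (-0.28) and mt-Tv (-0.58). A single blastocyst plate has no spread of its own and was given that of the morula plates. With the blastocyst plates fitted alone mt-Cytb passed (-0.33, adjusted p = 0.0171).

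The nuclear lists gave 2 genes that passed between the morpholinos, where 0.552% of all genes passed in the morula and 2.9% in the average. Of 16 tested genes of transcription and replication, Lig3, a DNA ligase that also seals mitochondrial DNA, was lower in NKX1-2 wells of the morula (log2 fold change -0.98, SE 0.19, adjusted p = 0.0278). The sums overlapped, at 20.8 and 41.7 CPM in NKX1-2 and 37.5 and 86.2 CPM in control wells. It was also lower in the average (-0.59, SE 0.14, adjusted p = 0.0274). Polrmt gave -0.06 (SE 0.15) and Tfam -0.04 (SE 0.17) in the average. Of 7 biogenesis regulators Esrra was higher in the average (0.99, SE 0.25, adjusted p = 0.0471). It had 10.6 and 13.1 CPM as the lowest and highest blastocyst NKX1-2 sum, against 2.77 and 5.48 in blastocyst control sums. The lower of these control values lies at the floor of 3 counts. The average also rests on the morula sums, which are not printed here for Esrra. None of 21 RNA processing genes and none of 17 mass genes passed, with lowest adjusted p-values of 0.171 and 0.0557 in the average.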

How the data were processed

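The authors deposited whole-number counts, not normalized, for each gene in each well barcode, and a table of the morpholino of each barcode. Per the labels' protocols, polyA RNA from a detergent lysate went into a TruSeq library, and 10x Genomics is named in the descriptions. The submitters' processing notes name TopHat2 and the builds GRCm38 and mm10, with no version or role. How counting was done, and how it used strand and reads with several matches, is not given in the sources used here.

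Wells with under 2000 detected genes (16) were left out, and the wells of 1 morpholino on 1 plate were summed. A block of 344 genes without morula counts was kept out of the fits. Sums were fitted with edgeR 4.0.16 (robust quasi-likelihood, filterByExpr, TMM, R 4.3.3), with the plate as a block between morpholinos and no block between stages. A row passed at an adjusted p under 0.05. NKX1-2 and control wells stood on the same plate by design, and the deviations of their 2 sums correlated at 0.257 in the morula and -0.0007 in the blastocyst. Levels per kilobase are CPM divided by annotated length. Floors cover counting error only. The models were tested on simulated data, in which unchanged genes made up a larger part of the morpholino calls than the threshold allows. Shared sequence and strand overlap were taken from GENCODE M21. Doublets were not called. Rows named are all mRNAs and rRNAs, tRNAs with at least 20 counts, and list genes that passed, of which some are given only by their number. The remaining tRNA rows, with fewer counts, are named outside that rule. The members and lists were chosen with earlier results of these data known. Alternatives included DESeq2 1.42.0, other size factors, filters and wells, and each plate left out. Figures were drawn with matplotlib 3.10.9.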

Additional observations from a re-analysis of the deposited data

How the results depend on the processing

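Counts of mitochondrial rows that passed were recomputed under other settings. The share of all genes that passed was not computed for these settings, so the counts have no background. RLE size factors, no TMM factors (added after seeing the data), library sizes without the mitochondrial rows, every well, and wells with at least 4000 detected genes left each count within 1.5 times its value. DESeq2 gave 0 calls in the average effect of the morpholino, and no filter on low counts gave 3, which adds mt-Tv and mt-Nd5. Likewise added, fits of wells with Xist but no Y-linked counts and of all other wells gave 0 each, and the cause was not tested. With the plates of 1 stage alone, 1 row passed in the blastocyst and 4 in the morula. Leaving out 1 plate at a time gave 1 to 9 calls in the blastocyst, 0 to 4 in the morula, 1 to 10 in the average, 0 to 3 for the difference of the effects, and 8 to 15 for the stages in NKX1-2 wells. mt-Nd6 turned its direction without blastocyst replicate 2, to -0.57 in the blastocyst (adjusted p = 0.0108) and -0.25 in the average (adjusted p = 0.0467), and without blastocyst replicate 1 it was 0.61 and 0.34. mt-Cytb stayed lower in the average under all 14 alternatives, between -0.41 and -0.22. With mRNA rows alone the share of all counts was 1.67% and 1.75% in blastocyst NKX1-2 and control wells and 2.20% and 2.45% in the morula, since rRNA rows are then left out.

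Without the plate as replicate block the counts of calls between morpholinos were 1 in the average and 0 in the blastocyst, the morula and the difference. With the plate number as replicate block between stages, 16 rows passed in NKX1-2 and 13 in control wells. Plates of different stages share only that number, and their deviations correlated at -0.002 and 0.0251. Low counts limit the tRNA rows most, since 2 counts decide a blastocyst value of mt-Te.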
